A study of Mus musculus with 19 samples.

Results

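Genes for 8 integrin subunits and 2 that encode proteins integrins bind were followed across both tissue layers of the embryonic urogenital sinus and of embryonic back skin. The 10 genes, Itga1, Itga4, Itga5, Itga8, Itga9, Itgav, Itgb1, Itgb3, Npnt and Vcam1, were taken by name, through the gene symbol that the annotation of the microarray gives each probe set. They are 10 of the 18193 genes that the annotation names with a single symbol, and they hold 37 of its 45037 probe sets that are not controls. A probe set was tested when its intensity was over 20 in at least 1 sample, which 32 of the 37 and 41549 of all probe sets passed, and every one of the 10 genes kept at least 2 tested probe sets. Each gene is described by the brightest of its tested probe sets (by the mean log2 intensity of all samples), and the others are given after it. The name of mesenchymal genes fitted only some of them, as 5 were called higher in mesenchyme in the urogenital sinus and 7 in skin, while Npnt and Itgav did not differ in that way in the urogenital sinus and Itga5 differed by less than 2-fold at both sites.

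Urogenital sinus mesenchyme (UGM, 5 samples) was compared with urogenital sinus epithelium (UGE, 6 samples), and dermis (4 samples) with epidermis (4 samples). The urogenital sinus is the part of the embryo from which the prostate arises. All tissue came from C57BL/6 mouse embryos of embryonic day 16, and each sample was a pool of embryos that could share animals with pools of another group. UGM and UGE were parted with trypsin and skin with dispase overnight in the cold, so that a difference between the urogenital sinus and skin cannot be told apart from one between these treatments.

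Integrins are receptors made of 1 α and 1 β chain that hold cells to extracellular matrix or to other cells and carry signals in both directions across the membrane. The product of Itgb1 pairs with the α1, α4, α5, α8, α9 and αv chains, and that of Itgb3 with αv and, in platelets, with the product of Itga2b. In the embryo, mesenchymal cells meet collagens and fibronectin through them, and the α8β1 receptor of kidney mesenchyme binds nephronectin, the product of Npnt, which is made by the ureteric bud epithelium and laid down in its basement membrane. Vcam1 encodes an immunoglobulin-type adhesion molecule that the α4β1 and α9β1 receptors of other cells bind.

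Markers of each layer were checked first. A gene was called where limma's moderated test gave a Benjamini-Hochberg adjusted p under 0.01 over all tested probe sets and the difference was more than 2-fold. All 24 mesenchymal genes of a marker list were called higher in UGM than in UGE, as were 22 of 24 in dermis over epidermis, and 25 of 25 epithelial genes were called lower in UGM and 21 of 25 lower in dermis. The layers were not equally clean. The median of the mesenchymal list was 11.87 to 12.25 on the log2 intensity scale in UGM, and 9.82 and 9.88 in UGE replicates 2 and 3 against 6.04 to 7.62 in the other UGE samples. It was 12.28 to 12.78 in dermis, and epidermis held it at 9.56 to 10.98. The median of the epithelial list was 6.57 to 8.09 in UGM. In dermis replicate 1 it was 10.06, against 7.96 to 9.03 in the other dermis samples. Values of the genes in these samples are given where they bear on a result, and a value on a bulk array does not tell fewer cells of a type from less RNA per cell. The lower quartile of all probe sets lay at 4.70 to 4.92 on the log2 scale on the 19 arrays, and no signal near or below it is read here as expression.

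The sequence around the start of each gene was searched for a few short promoter motifs. RefSeq windows of 250 bases before to 50 after the start of transcription (GRCm38.p6) matched 8 of the 10 genes, all but Itgb3 and Vcam1, in 9 windows, as Npnt had 2. Itga1, Itga4 and Itga8 are shown because each was higher in both mesenchymal layers, and Npnt because it differed between the sites and not between the layers. They lie at chr13:115101915-115102214 on the minus strand (Itga1), chr2:79255176-79255475 on the plus strand (Itga4), chr2:12301895-12302194 on the minus strand (Itga8) and chr3:132950242-132950541 on the minus strand (Npnt, the first of its windows). Each is written 5′ to 3′ along its gene, and capitals mark a motif that was found.
Itga1: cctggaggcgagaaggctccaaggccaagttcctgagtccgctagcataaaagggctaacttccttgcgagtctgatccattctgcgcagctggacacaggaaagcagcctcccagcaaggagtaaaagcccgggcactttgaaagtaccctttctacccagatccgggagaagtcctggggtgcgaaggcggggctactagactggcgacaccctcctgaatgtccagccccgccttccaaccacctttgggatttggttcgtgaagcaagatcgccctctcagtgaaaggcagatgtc
Itga4: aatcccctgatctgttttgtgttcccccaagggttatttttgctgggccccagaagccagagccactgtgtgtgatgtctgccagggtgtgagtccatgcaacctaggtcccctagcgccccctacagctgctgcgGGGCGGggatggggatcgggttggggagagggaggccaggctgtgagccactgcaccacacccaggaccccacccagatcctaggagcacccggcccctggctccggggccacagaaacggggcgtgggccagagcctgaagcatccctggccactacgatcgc
Itga8: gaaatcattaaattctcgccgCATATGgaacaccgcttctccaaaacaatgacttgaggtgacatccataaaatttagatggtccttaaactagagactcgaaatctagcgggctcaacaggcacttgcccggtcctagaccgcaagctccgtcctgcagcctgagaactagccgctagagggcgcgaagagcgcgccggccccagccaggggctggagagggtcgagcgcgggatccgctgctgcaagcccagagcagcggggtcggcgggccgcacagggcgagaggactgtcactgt
Npnt: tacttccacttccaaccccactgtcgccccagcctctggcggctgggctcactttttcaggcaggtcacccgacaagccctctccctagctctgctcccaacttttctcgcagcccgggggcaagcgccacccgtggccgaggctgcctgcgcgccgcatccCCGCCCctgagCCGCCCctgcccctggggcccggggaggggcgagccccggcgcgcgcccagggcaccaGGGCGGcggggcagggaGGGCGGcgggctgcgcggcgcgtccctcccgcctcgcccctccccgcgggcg
The motifs searched, on both strands, were a GC box (GGGCGG), the E-boxes CAGGTG and CATATG and a TATA box (TATAAA). Npnt held 4 GC boxes in the window shown and Itga4 held 1, while 35.7% of 32851 mouse windows of this length held at least 1. Itga8 held 1 CATATG, which is in 3.91% of windows, and Itga1 held none of the 4 motifs. Of the windows not shown, Itga5 held 2 GC boxes, Itgav 1 and Itgb1 1, Itga9 held 2 CAGGTG and the other Npnt window 3, and 20.2% of all windows hold CAGGTG. No window of the 9 held TATAAA, which 13.6% of all windows hold. The bases were 76.7% G or C in the Npnt window, 64.3% in Itga4, 59.0% in Itga8 and 56.7% in Itga1, against a median of 52.7% over all windows.

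Between the layers, the genes moved towards mesenchyme or did not pass the test, and none was called lower there. In UGM 5 of the 10 genes were called higher than in UGE (Itga1, Itga4, Itga8, Itgb3 and Vcam1), where 10.0% of 17360 genes were called higher, and 0 were called lower, where 6.75% were. In dermis 7 of the 10 were called higher than in epidermis, the same 5 with Itga9 and Itgb1, where 11.1% of all genes were, and 0 were called lower, where 5.84% were. At an unadjusted p under 0.05 limma put 1 gene (Npnt) lower in UGM and 0 lower in dermis, and the methods' t-test also called 0 lower at either site. The median difference of the 10 genes was 1.13 on the log2 scale for UGM minus UGE, against -0.02 over all genes, and 2.06 for dermis minus epidermis, against -0.01.

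**Figure D1:**
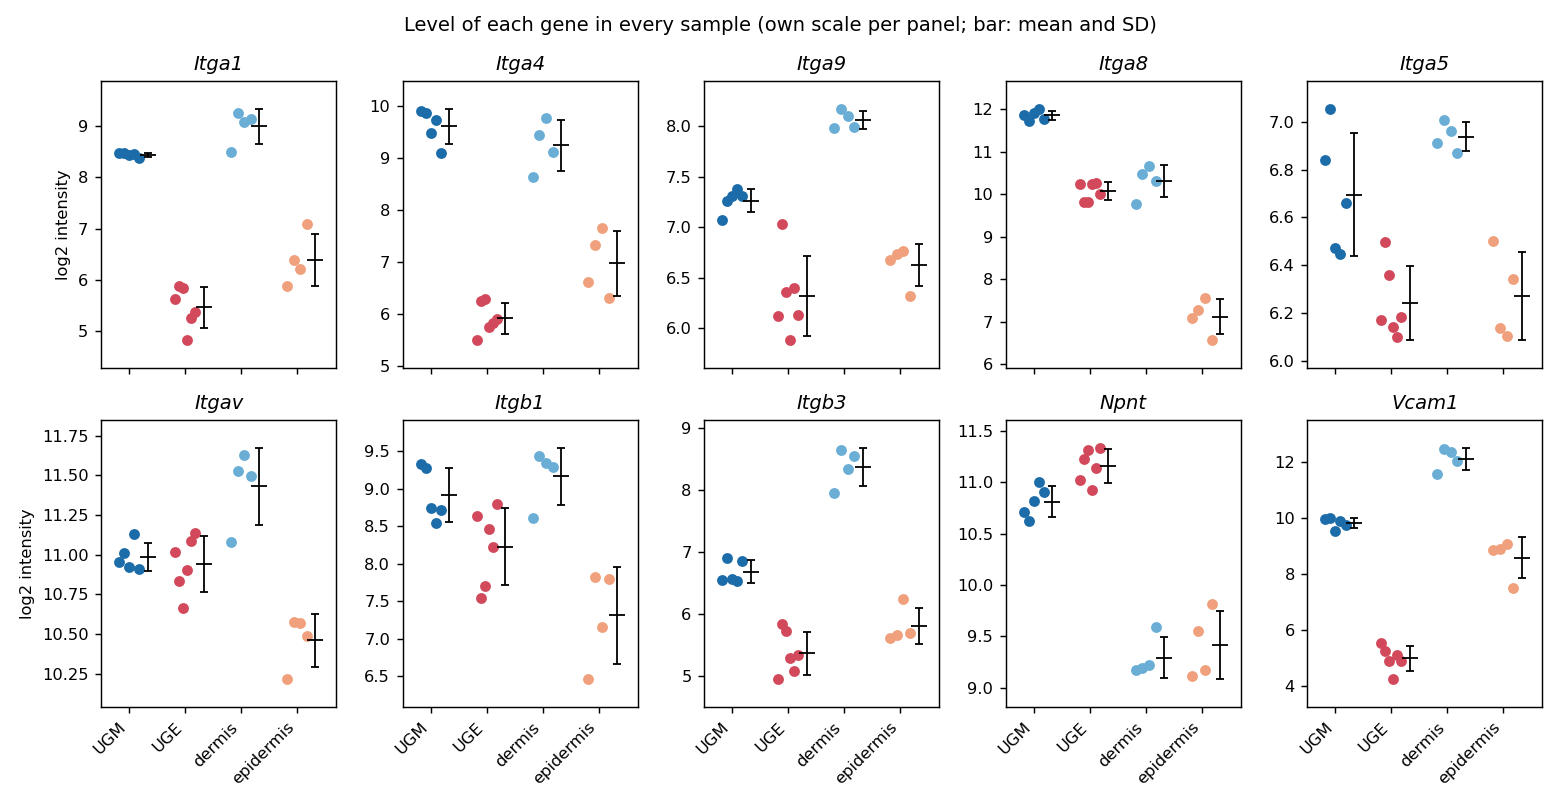
Log2 intensity of each of the 10 genes, 1 panel a gene with its own vertical axis, in every sample of UGM, UGE, dermis and epidermis. Points are samples and the bar and whiskers are the mean and SD; Vcam1 in UGE lies at 4.23 to 5.51, near the lower quartile of the arrays, and Npnt parts the urogenital sinus from skin instead of the layers.

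Itga1 encodes the α1 chain of a receptor for collagens, and it was high in both mesenchymal layers. It was measured at 8.48, 8.47, 8.43, 8.45 and 8.38 in the 5 UGM samples, and in UGE the lowest value was 4.82, the median 5.50 and the highest 5.88. UGM exceeded UGE by 2.98 ± 0.17 on the log2 scale (SE; 95% interval 2.61 to 3.35), or 7.87-fold, with a limma adjusted p of 3.75e-08. The UGM samples lay within 0.04 (SD) of each other, which was the smallest SD of any of the 10 genes in any group. In skin it was 8.49, 9.26, 9.09 and 9.14 in dermis, against 5.88, 6.39, 6.22 and 7.08 in epidermis, a difference of 2.60 ± 0.25 (2.04 to 3.17) or 6.08-fold with a limma adjusted p of 4.53e-05. The layers did not overlap at either site. The highest epidermal value, 7.08, was in replicate 4, which had the lowest mesenchymal markers of the epidermis samples. A second, less bright probe set was called at both sites too, by 1.20 in the urogenital sinus and 1.75 in skin.

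Itga4 encodes the α4 chain, which binds fibronectin and Vcam1, and its difference between the layers was the largest among the 8 integrin genes in the urogenital sinus. The UGM values were 9.90, 9.85, 9.46, 9.71 and 9.08, and those of UGE ran from a lowest of 5.48 through a median of 5.85 to a highest of 6.27. The difference was 3.69 ± 0.18 (3.30 to 4.08), or 12.9-fold, with a limma adjusted p of 8.77e-09. UGE replicates 2 and 3, which carried the most mesenchymal markers, had the highest UGE values of this gene, 6.25 and 6.27, still more than 2 log2 units under the lowest UGM value. Dermis had 8.63, 9.44, 9.77 and 9.10, against 6.60, 7.31, 7.65 and 6.29 in epidermis, which is 2.27 ± 0.32 (1.55 to 2.99), or 4.83-fold, with a limma adjusted p of 0.000424. The lowest dermis sample lay above the highest epidermis sample. Of its other tested probe sets, 1 was called at both sites (3.22 and 2.22), 1 at the urogenital sinus alone (1.09, against 0.82 with an adjusted p of 0.00607 in skin), and 1, which lay near the lower quartile of the arrays, differed by 0.06 and 0.02.

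Itga9 encodes the α9 chain, a receptor chain for tenascin-C, Vcam1 and the Svep1 protein that lymphatic vessels need to form. It was called in skin only, although its layers did not overlap at either site. UGM had 7.07, 7.25, 7.31, 7.38 and 7.31, and UGE a lowest of 5.88, a median of 6.25 and a highest of 7.03. The UGM value exceeded that of UGE by 0.94 ± 0.17 (0.57 to 1.32), which is 1.92-fold, with a limma adjusted p of 0.000874. The size, not the p, kept it from a call, and the highest UGE value was in replicate 2. Without that replicate the difference was 1.08 with an adjusted p of 1.23e-05, and the gene was called. Dermis had 7.98, 8.17, 8.10 and 7.99, against 6.68, 6.74, 6.76 and 6.32 in epidermis, a difference of 1.43 ± 0.12 (1.16 to 1.71) or 2.70-fold with a limma adjusted p of 2.06e-05. A second Itga9 probe set was called at both sites, with 7.27, 7.34, 7.59, 7.52 and 7.82 in UGM against 5.21 to 6.14 in UGE (1.97 ± 0.17) and 8.64, 9.19, 8.83 and 8.85 in dermis against 6.46, 5.84, 5.88 and 5.09 in epidermis (3.06 ± 0.25). The third was called at neither.

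Vcam1, the ligand of the α4β1 and α9β1 receptors, showed the largest differences of the 10 genes at both sites. In UGM it was 9.95, 10.01, 9.53, 9.87 and 9.76, and in UGE the lowest was 4.23, the median 4.98 and the highest 5.51. UGM exceeded UGE by 4.85 ± 0.19 (4.43 to 5.27), or 28.9-fold, with a limma adjusted p of 1.82e-09. As UGE lay close to the lower quartile of the arrays, the fold depends on how well so dim a signal is measured. UGE replicates 2 and 3 had 5.24 and 4.88, inside the range of the other UGE samples. Dermis had 11.57, 12.47, 12.35 and 12.04, against 8.86, 8.89, 9.07 and 7.50 in epidermis, which is 3.53 ± 0.34 (2.78 to 4.28), or 11.5-fold, with a limma adjusted p of 4.03e-05. The epidermal level was thus well above that of UGE, and the lowest of it was in replicate 4, the sample with the lowest mesenchymal markers. The other probe sets of Vcam1 disagreed in the urogenital sinus. One had 6.98, 7.24, 6.49, 6.42 and 6.68 in UGM against 5.66 to 6.19 in UGE, a difference of 0.75 ± 0.15 that was not called, and the third had 6.37 to 6.55 against 5.98 to 6.44, a difference of 0.19. Both were called in skin, by 2.93 ± 0.23 and 2.47 ± 0.21.

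Itga8, which encodes the α8 chain, was higher in mesenchyme at both sites and higher in the urogenital sinus in both layers. Its values were 11.86, 11.73, 11.91, 12.01 and 11.78 in UGM, and in UGE the lowest was 9.82, the median 10.13 and the highest 10.26. UGM exceeded UGE by 1.79 ± 0.11 (1.55 to 2.03), or 3.46-fold, with a limma adjusted p of 7.14e-08. The UGE samples lay close together, and those with the most mesenchymal markers, replicates 2 and 3, had the lowest Itga8 of the 6, 9.82 and 9.83. Dermis had 9.78, 10.49, 10.67 and 10.31, against 7.10, 7.28, 7.55 and 6.57 in epidermis, a difference of 3.19 ± 0.24 (2.66 to 3.72) or 9.10-fold with a limma adjusted p of 1.06e-05. The values of UGE, an epithelium, thus fell inside the range of those of dermis for this probe set and lay far above those of epidermis. The other Itga8 probe set was much dimmer, at 5.36 to 6.92 in UGM, 4.24 to 4.84 in UGE, 4.93 to 5.38 in dermis and 4.19 to 4.52 in epidermis. It was called in the urogenital sinus (1.39 ± 0.25) and not in skin (0.77 with an adjusted p of 0.00171), and its UGE values lay near the lower quartile of the arrays.

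Npnt, whose product is the ligand of α8β1, was no mesenchymal gene on these arrays. UGM had 10.71, 10.62, 10.82, 11.00 and 10.90, and UGE a lowest of 10.92, a median of 11.18 and a highest of 11.34. The difference was -0.35 ± 0.10 (-0.57 to -0.13), with a limma adjusted p of 0.0182, and it was not called. The groups overlapped. In skin it was 9.17, 9.19, 9.22 and 9.59 in dermis, against 9.11, 9.55, 9.17 and 9.81 in epidermis, a difference of -0.12 ± 0.17 (-0.50 to 0.27) with an adjusted p of 0.653. The layers of skin overlapped fully, and a difference of more than 0.50 in either direction lies outside the 95% interval. Between the sites Npnt was called in both layers, by 1.52 ± 0.14 (1.22 to 1.81) or 2.87-fold for UGM over dermis with a limma adjusted p of 7.59e-08, and by 1.75 ± 0.14 (1.46 to 2.03) or 3.36-fold for UGE over epidermis with an adjusted p of 5.59e-09. Its next brightest probe set did likewise, by 1.5 for UGM over dermis and 1.83 for UGE over epidermis, and put UGM 0.61 ± 0.13 below UGE with an adjusted p of 0.00321, short of 2-fold but with no overlap. Its remaining 3 probe sets were called in no comparison.

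Itga5 and Itgav encode the α chains of fibronectin and vitronectin receptors that bind the RGD motif, as α8 does, and neither was called between the layers. Itga5 had 6.84, 7.05, 6.47, 6.45 and 6.66 in UGM and a lowest of 6.10, a median of 6.18 and a highest of 6.50 in UGE, a difference of 0.45 ± 0.12 (0.18 to 0.72) with a limma adjusted p of 0.0123. The groups overlapped, and a 2-fold difference lies outside the 95% interval. In skin Itga5 was 6.91, 7.01, 6.96 and 6.87 in dermis, against 6.50, 6.14, 6.11 and 6.34 in epidermis, a difference of 0.67 ± 0.11 (0.41 to 0.92) with an adjusted p of 0.00126. Skin did part the layers without overlap, by 1.59-fold. Its other 3 probe sets lay near the lower quartile of the arrays and none was called.

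Itgav was bright and nearly level in the urogenital sinus, with 10.96, 11.01, 10.92, 11.13 and 10.91 in UGM and a lowest of 10.67, a median of 10.96 and a highest of 11.14 in UGE. UGM minus UGE was 0.04 ± 0.10 (-0.17 to 0.25), with a limma adjusted p of 0.770. Without UGE replicates 2 and 3 the difference was -0.05, so that its direction is not settled. In skin Itgav was 11.08, 11.52, 11.63 and 11.50 in dermis, against 10.22, 10.57, 10.57 and 10.49 in epidermis, a difference of 0.97 ± 0.14 (0.65 to 1.29) or 1.96-fold with a limma adjusted p of 0.000537. Dermis lay above epidermis in every sample, and the call failed on size alone. Leaving out 1 sample gave a call in 3 of 8 cases. These were without dermis replicate 1, the dermis sample with the most epithelial transcripts (1.09), without epidermis replicate 2 and without epidermis replicate 3. None of the other tested Itgav probe sets was called between the layers. The next brightest differed by -0.01 in the urogenital sinus and -0.15 in skin. Another, near the lower quartile of the arrays, differed by -0.39 and 0.64 (limma adjusted p of 0.0101 and 0.00899). The last, below that quartile, differed by -0.06 at both sites.

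Of the β chains, Itgb1 was called between the layers in skin only and Itgb3 at both sites. Itgb1, the common partner of most of the α chains above, had 9.33, 9.27, 8.74, 8.54 and 8.72 in UGM and a lowest of 7.54, a median of 8.34 and a highest of 8.79 in UGE. The difference was 0.69 ± 0.24 (0.16 to 1.22) with a limma adjusted p of 0.0434, and it was not called. The groups overlapped, and the UGE values were spread by 0.51 (SD), the lowest being 7.54 and 7.70 in replicates 2 and 3. In skin Itgb1 was 8.60, 9.43, 9.34 and 9.28 in dermis, against 6.46, 7.83, 7.15 and 7.80 in epidermis, a difference of 1.86 ± 0.31 (1.17 to 2.54) or 3.62-fold with a limma adjusted p of 0.00104. The other tested Itgb1 probe sets were called in skin too (1.83 and 1.11). Neither was called in the urogenital sinus (0.997 and 0.44, limma adjusted p of 0.0105 and 0.0231), though UGM and UGE did not overlap for either of them. By the methods' t-test the adjusted p in skin was 0.0148 and the gene was not called.

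Itgb3, which encodes the β chain of the αvβ3 vitronectin receptor, had 6.54, 6.91, 6.57, 6.54 and 6.86 in UGM and a lowest of 4.95, a median of 5.32 and a highest of 5.84 in UGE, a difference of 1.31 ± 0.16 (0.96 to 1.67) or 2.48-fold with a limma adjusted p of 3.96e-05. Dermis had 7.95, 8.65, 8.35 and 8.56, against 5.62, 5.67, 6.24 and 5.69 in epidermis, a difference of 2.57 ± 0.19 (2.15 to 2.99) or 5.94-fold with an adjusted p of 9.54e-06. All dermis samples lay above all UGM samples. The second Itgb3 probe set, which lay near the lower quartile of the arrays in all 4 groups (4.91 to 5.71), differed by -0.04 in the urogenital sinus and -0.02 in skin, so that every value of Itgb3 rests on 1 probe set. With 50 added to each value before log2 the difference in the urogenital sinus was 0.73 and Itgb3 was not called there.

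**Figure D2:**
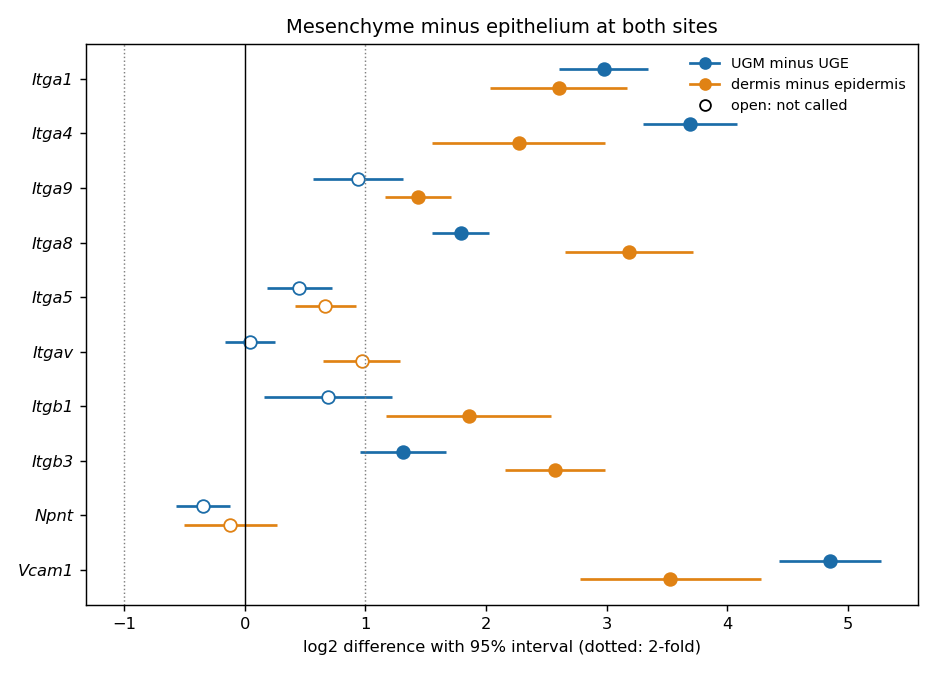
Difference between mesenchyme and epithelium for each of the 10 genes on the log2 scale, UGM minus UGE and dermis minus epidermis, with 95% intervals of limma's fit. Filled points were called, open points were not, and dotted lines mark a 2-fold difference; the 5 genes filled at the urogenital sinus are filled in skin too.

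Whether the difference between the layers was itself unlike at the 2 sites was tested as an interaction, UGM minus UGE minus the same difference in skin. Of the 10 genes 3 were called, where 12.9% of all genes were, and their directions were mixed. Itga8 had the smaller difference in the urogenital sinus, by -1.40 ± 0.25 (-1.93 to -0.86) with a limma adjusted p of 0.000455, as did Itgb3, by -1.26 ± 0.26 (-1.80 to -0.72) with an adjusted p of 0.0014. Itga4 had the larger one there, by 1.42 ± 0.37 (0.64 to 2.20) with an adjusted p of 0.00959, close to the threshold. Leaving out 1 sample ended the call of Itga4 in 13 of 19 cases, with values of 1.19 to 1.65, and its second brightest probe set gave 0.998 with an adjusted p of 0.126.

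By their brightest probe sets, Itgav and Itgb1 also had the smaller difference in the urogenital sinus, without a call. The value was -0.93 ± 0.17 (-1.27 to -0.58) for Itgav, with a limma adjusted p of 0.000377 and 1.90-fold, and -1.16 ± 0.41 for Itgb1, with an adjusted p of 0.0584. Both were called without UGE replicates 2 and 3, at -1.02 for Itgav and -1.47 for Itgb1. With all samples, a dimmer Itgav probe set was called at -1.02 ± 0.18 with a limma adjusted p of 0.000306. That probe set lay near the lower quartile of the arrays. The next brightest Itgav probe set gave 0.13 (adjusted p of 0.615). Itga1 (0.37 ± 0.31, -0.28 to 1.03), Itga5 (-0.21), Itga9 (-0.49) and Npnt (-0.23) had adjusted p values of 0.168 to 0.515.

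Vcam1 gave opposite answers by probe set. Its brightest probe set had an interaction of 1.32 ± 0.39 (0.50 to 2.15) with a limma adjusted p of 0.0223, and 1.69 with an adjusted p of 0.000641 without epidermis replicate 4. The other Vcam1 probe sets gave -2.18 ± 0.28 and -2.28 ± 0.21, both called, with adjusted p values of 1.05e-05 and 1.79e-07. The dimmer Itga8 probe set, which lay near the lower quartile of the arrays in both epithelia, gave 0.61 ± 0.33 (-0.07 to 1.30) with an adjusted p of 0.235. No direction of the interaction is given for Vcam1, and that of Itga8 rests on its bright probe set.

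**Figure D3:**
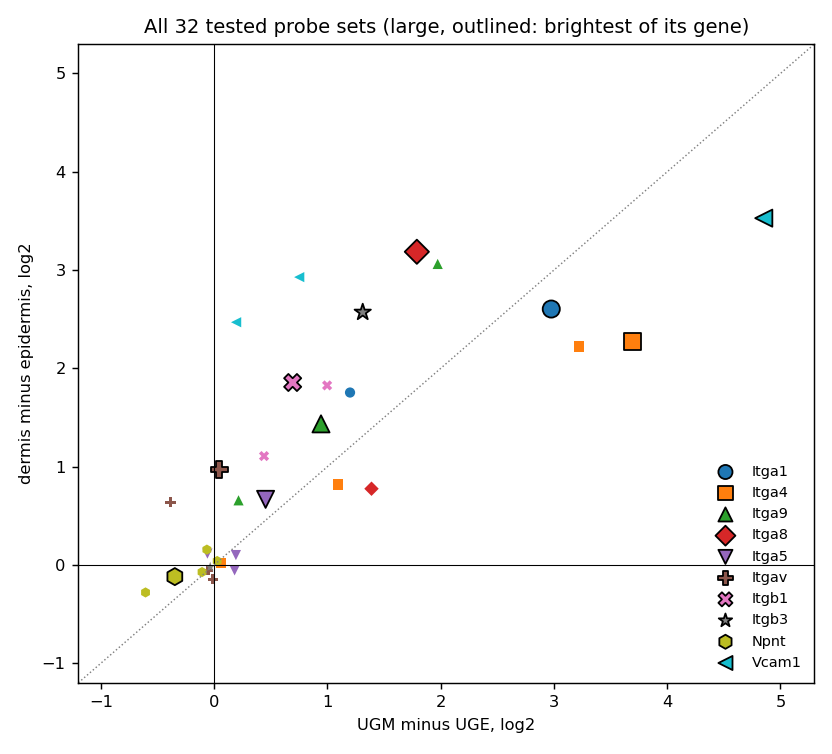
Each of the 32 tested probe sets of the 10 genes by its difference in the urogenital sinus (horizontal, UGM minus UGE, log2) and in skin (vertical, dermis minus epidermis, log2). Large outlined points are the probe set each gene is described by; the pair of smaller Vcam1 points lies far to the left of the large one.

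Counted by probe set, 10 of the 32 tested were called higher in UGM than in UGE and 14 higher in dermis than in epidermis, and 0 were called lower in either mesenchyme. By any of its probe sets, 6 of the 10 genes were called in the urogenital sinus, the 5 above with Itga9, and 7 in skin. For the interaction 5 were called in this way, the 3 above with Itgav and Vcam1. The matching shares over all tested probe sets, or over all genes by any probe set, were not counted. These counts are thus a description without a background. The part of the transcript that each probe set reads was not analysed here.

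Each layer was then compared between the sites. In the mesenchyme 4 of the 10 genes were called between UGM and dermis, where 13.8% of all genes were, and in the epithelium 4 between UGE and epidermis, where 14.4% were. By their brightest probe sets, the α8 gene and its ligand gene were higher in the urogenital sinus in both layers. Itga8 was 1.55 ± 0.18 higher in UGM than in dermis, or 2.92-fold, with a limma adjusted p of 1.94e-06. In UGE Itga8 was 2.94 ± 0.18 (2.57 to 3.32) higher than in epidermis, or 7.70-fold, with an adjusted p of 1.62e-10. The dimmer Itga8 probe set was called in neither layer, at 0.86 and 0.25 (limma adjusted p of 0.00719 and 0.418), and its groups overlapped. For Npnt the values stand above.

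Vcam1 was lower in the urogenital sinus in both layers, by -2.28 ± 0.28 for UGM minus dermis (4.87-fold, limma adjusted p of 3.56e-06) and by -3.61 ± 0.27 for UGE minus epidermis (12.2-fold, adjusted p of 4.25e-09). In mesenchyme all 3 probe sets of Vcam1 were called, the other ones at -2.70 and -2.72. In epithelium they were not, at -0.52 and -0.44. Itgb3 was lower in UGM than in dermis by -1.69 ± 0.19 (3.23-fold, adjusted p of 7.91e-07), and in epithelium its difference of -0.43 had an adjusted p of 0.0686. Itga9 was lower in UGM than in dermis in every sample, by -0.80 ± 0.17 (1.74-fold, adjusted p of 0.000903), and its second probe set was called at -1.37.

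In UGE, Itga4 was below epidermis by -1.06 ± 0.26 (2.08-fold, limma adjusted p of 0.0032), a call that ended without UGE replicate 1 or epidermis replicate 2 or 3, at -0.97, -0.94 and -0.83. Itga1 was below epidermis too, by -0.93 ± 0.22 (1.90-fold, limma adjusted p of 0.0023), without a call. It was called at -1.12 without UGE replicates 2 and 3, and also without UGE replicate 2, UGE replicate 3 or epidermis replicate 1 alone. Its second probe set, below the lower quartile of the arrays in both epithelia, gave -0.36 (adjusted p of 0.058). By its brightest probe set Itgb1 was above epidermis by 0.92 ± 0.29 (limma adjusted p of 0.0174), and was called at 1.22 without UGE replicates 2 and 3. Its other tested probe sets were nearly level, with means of 7.51 in UGE and 7.35 in epidermis for the next brightest and 5.34 and 5.24 for the last. Itga1 and Itga4 did not pass between the mesenchymes (-0.55 and 0.37, adjusted p of 0.0632 and 0.309), nor did Itga5 in either layer (-0.24 and -0.03). For Itga5 between UGE and epidermis the 95% interval ran from -0.28 to 0.22.

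Mesenchymal transcripts in the epithelial samples move with some of these values. Epidermis carried the mesenchymal list at 9.56 to 10.98, above the 6.04 to 7.62 of UGE samples other than replicates 2 and 3, and it had the higher Itga4, Itga1 and Vcam1 of the 2 epithelia. Within UGE the list differed by more than 3 log2 units between samples, and in replicates 2 and 3 Itga1, Itga4, Itga5 and Itgb3 had their highest UGE values and Itga8, Itgav and Itgb1 their lowest. Without both replicates 5 of the 10 genes were called for the interaction. Within epidermis, replicate 4 had the lowest list median with the lowest Vcam1, Itga4, Itga8 and Itga9 and the highest Itga1. The part of these transcripts in the differences was not tested beyond leaving samples out.

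**Figure D4:**
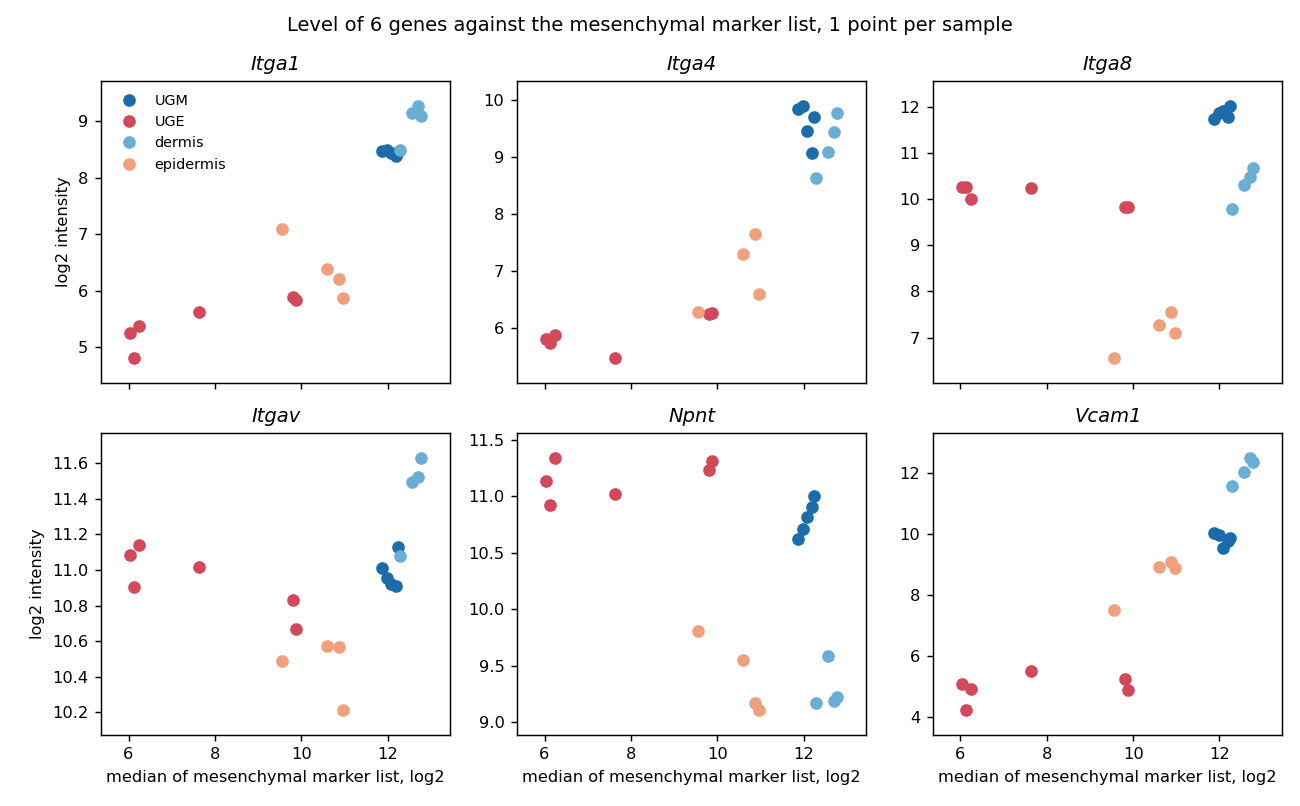
Log2 intensity of Itga1, Itga4, Itga8, Itgav, Npnt and Vcam1 in each sample (vertical) against the median log2 intensity of the mesenchymal marker list in that sample (horizontal), by group. UGE replicates 2 and 3 stand to the right of the other UGE samples, at 9.82 and 9.88, with Itga8 at 9.82 and 9.83 and Vcam1 at 5.24 and 4.88.

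Markers of other cell types differed between the layers as well. Of 15 endothelial markers 14 were called higher in UGM than in UGE and 15 higher in dermis than in epidermis, with list medians of 7.98 to 8.75 in UGM, 5.0 to 6.09 in UGE, 8.86 to 9.36 in dermis and 5.69 to 6.32 in epidermis. Of 15 macrophage markers 10 and 15 were called higher, with medians of 7.72 to 8.26 in UGM, 6.46 to 6.90 in UGE, 9.37 to 9.85 in dermis and 6.54 to 7.83 in epidermis. Between UGM and dermis, where 13.8% of all genes were called in either direction, 10 of the 15 macrophage markers and 3 of the 15 endothelial markers were called lower in UGM. So were 13 of 15 skeletal muscle markers. Of 15 smooth muscle markers 9 were called higher in UGM than in dermis and 1 lower, and 14 of 14 neuronal markers higher. Of 15 smooth muscle markers 11 were called higher in UGM than in UGE and 8 higher in dermis than in epidermis, with medians of 9.62 to 10.10 in UGM, 5.68 to 6.89 in UGE, 6.65 to 7.18 in dermis and 5.86 to 6.33 in epidermis. Itga8 and Itga1 are genes of smooth muscle as well. Skeletal muscle markers were called higher in dermis than in epidermis in 13 of 15 and neuronal markers higher in UGM than in UGE in 14 of 14. Of 13 Schwann and neural crest markers 9 were called higher in UGM than in UGE and 3 lower, and 6 higher in dermis than in epidermis and 3 lower. Of 12 erythroid markers 5 were called higher in UGM and 0 lower, and 7 higher in dermis and 1 lower. Of all genes 10.0% were called higher in UGM and 6.75% lower, and 11.1% higher in dermis and 5.84% lower. No marker was listed at 0, since the lowest value of the deposited table was 7.40 on the linear scale. The part of these cell types in the values of the 10 genes was not tested.

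Of the 16 other integrin subunit genes, 0 were called higher in UGM than in UGE, where 10.0% of all genes were, and 3 were called lower, where 6.75% were. Those called by limma were Itgb4 (-2.94 ± 0.17, limma adjusted p of 5.47e-08), the β chain of the hemidesmosome, Itgb6 (-1.91 ± 0.23, adjusted p of 3.26e-05), an epithelial partner of αv, and Itga3 (-1.57 ± 0.18, adjusted p of 1.66e-05), a laminin receptor chain. Itga7 (0.59 ± 0.14, limma adjusted p of 0.0062) and Itgb8 (1.04 ± 0.54, adjusted p of 0.160) lay on the UGM side without a call. At an unadjusted p under 0.05, 2 of the 16 were higher in UGM and 7 lower, and in skin 5 were higher in dermis and 3 lower. In skin 2 of the 16 were called higher in dermis, where 11.1% of all genes were, and 0 lower, where 5.84% were. Those called were Itga7 (1.77 ± 0.16), the laminin receptor chain of muscle, and Itgb2 (1.64 ± 0.19), the β chain of leukocyte integrins. In skin the chains that were lower in UGM did not pass (Itgb4 -0.85, Itgb6 -0.91 and Itga3 -0.70, adjusted p of 0.0126 to 0.0387). The interaction was called for 5 of the 16, where 12.9% of all genes were called. They were Itgb4 (-2.09), Itga6 (-1.35), Itgb2 (-1.23), Itga7 (-1.18) and Itgb7 (-1.07). The epithelial marker list had medians of 7.96 to 10.06 in dermis and 6.57 to 8.09 in UGM. The part of epithelial transcripts in these differences was not tested. The medians over the 16 genes were -0.11 for UGM minus UGE and -0.03 for dermis minus epidermis, against -0.02 and -0.01 over all genes.

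**Figure D5:**
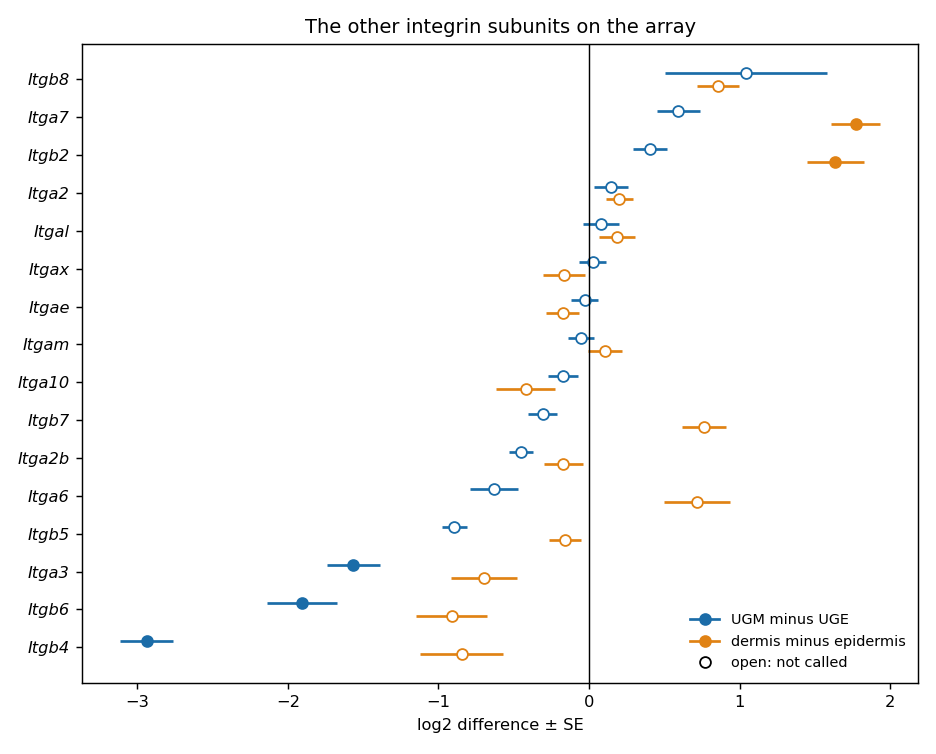
Difference between mesenchyme and epithelium for the 16 integrin subunit genes outside the set, UGM minus UGE and dermis minus epidermis, on the log2 scale with SE. Itgb4, at -2.94 in the urogenital sinus, lies furthest to the epithelial side.

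Other genes for proteins that integrins bind were mostly mesenchymal. Of 30 tested, 19 were called higher in UGM than in UGE and 3 lower, and 21 were called higher in dermis than in epidermis and 1 lower, with medians of 1.68 and 1.94. Of all genes 10.0% were called higher in UGM and 6.75% lower, and 11.1% higher in dermis and 5.84% lower. Among the large differences in the urogenital sinus were those of Nid1 (5.12 ± 0.64), a basement membrane protein that links laminin and collagen, Frem1 (4.99 ± 0.70), of the basement membrane under embryonic epithelia, and Emilin1 (4.85 ± 0.72), an elastic fibre protein that α9β1 and α4β1 bind. Their order is not settled, as the UGE samples were spread by 1.62 to 1.83 (SD). In skin the largest were Icam2 (3.71), an endothelial ligand of leukocyte integrins, Emilin1 (3.30) and Frem1 (3.02), and Fras1, which encodes an epithelial basement membrane protein, was lower in both mesenchymes (-1.62 in the urogenital sinus and -1.23 in skin). Icam1 (-1.57) and Mfge8 (-1.37), whose product αv integrins bind, were called lower in UGM. In skin Mfge8 went the other way and was called higher in dermis (1.87 ± 0.18), with a called interaction of -3.24 ± 0.22. Icam1 did not pass in skin (-0.14, limma adjusted p of 0.594).

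A few further ligand genes tie to the α8 and α9 chains. Egfl6, whose product is akin to nephronectin and also binds α8β1, was called in both mesenchymes, by 1.54 ± 0.12 in UGM over UGE and 2.08 ± 0.20 in dermis over epidermis. Svep1 was called by 2.68 ± 0.16 and 2.99 ± 0.24, and Tnc, which encodes tenascin-C, by 2.12 ± 0.35 and 2.05 ± 0.19. Fn1 for fibronectin was not called in the urogenital sinus (0.39 with a limma adjusted p of 0.0103) and was in skin (2.94 ± 0.18). Vtn for vitronectin differed by 0.003 in the urogenital sinus (limma adjusted p of 0.989), where both layers lay near the lower quartile of the arrays. In skin Vtn was called higher in dermis (1.28 ± 0.15, adjusted p of 0.000156). These 5 genes were picked for their link to the 10 genes with their values known.

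Of 22 genes for cytoplasmic partners of integrins, 7 were called higher in UGM than in UGE and 1 lower, where 10.0% and 6.75% of all genes were. In dermis 12 were called higher than in epidermis and 0 lower, where 11.1% and 5.84% of all genes were. Fermt2, for kindlin-2, which activates β1 and β3 chains, was called at both sites (2.45 ± 0.12 and 2.11 ± 0.18). Parvb, which like Actn1 ties integrins to actin, was called at both sites too (2.62 ± 0.20 and 1.90 ± 0.17). Actn1 was called in UGM (1.98 ± 0.22) and fell short of 2-fold in dermis (0.71). Parva was called in dermis (1.91 ± 0.13) and fell short of 2-fold in UGM (0.76). Fermt3, the kindlin of blood cells, was called in dermis (3.49 ± 0.41) and not in UGM (0.46 ± 0.25), and Cib1, a calcium-binding partner of the platelet α chain, was lower in UGM (-1.71 ± 0.19).

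Genes whose values ran most like those of each of the 10 over the 19 samples were found by Pearson's r on the log2 scale. The samples fall into 4 groups, so that r follows the differences between groups, and it is given as a description. Vcam1 ran with Cavin2 (0.991) and Lum (0.989), a collagen-binding proteoglycan of connective tissue, Itga4 with Cdh6 (0.992) and Fam13c (0.985), and Itga8 with Sulf1 (0.985) and Nfia (0.983). Itga1 ran with Antxr1 (0.984), Itgb3 with Tal1 (0.978) and Adamts4 (0.978), Itga9 with Ecscr (0.968), and Npnt with Tbx3 (0.983). Cdh6 is also on the Schwann and neural crest list and Tal1 on the erythroid list. The closest gene to Itgav was Celf2 (0.973), to Itga5 Tns1 (0.955) and to Itgb1 Dtl (0.949). Among the 10 genes themselves the closest pairs were Itga9 with Itgb3 (0.951), Itga1 with Itga4 (0.938), Itga1 with Vcam1 (0.913) and Itga9 with Vcam1 (0.904).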

How the data were processed

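RNA of each pooled sample was labelled in 2 cycles and hybridised to 1 Affymetrix MOE430 2.0 array, 19 in all. The deposited values are linear intensity per probe set, which the authors normalized between arrays. The methods name GCOS 1.4 for raw data, MAS5 for detection and PLIER for expression, and the sources used here do not say which of them made the table. Array medians were 76.2 to 81.6, and samples of a group correlated at 0.954 to 0.997. The number of arrays limits the precision, and the p-values measure the spread between pools. BioB, a hybridization control, lay at 7.47 to 8.23 on the log2 scale in UGM, 8.21 to 9.29 in UGE, 8.71 to 8.87 in dermis and 8.88 to 9.30 in epidermis.

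Values were put on the log2 scale with no further normalization. The 64 control probe sets were left out, and limma 3.58.1 (R 4.3.3) was run on every probe set over 20 in 1 sample or more (lmFit, eBayes, 2-sided, tested on simulated data). UGM and UGE, and dermis and epidermis, were fitted separately, as in the methods, with limma in place of their t-test, and the interaction and the comparisons between sites came from 1 fit of all 4 groups. Thresholds were an adjusted p under 0.01 and 2-fold, those of the methods.

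Deviations from the group means of dermis and epidermis samples of the same number correlated at 0.343, 0.108, 0.264 and 0.168. By the data alone the numbers may thus be pairs, though for numbers 3 and 4 another number correlated better. The 10 genes, the gene lists, the tests and the rule for names were chosen with earlier results of these data known. The rule took all 10 genes, up to 3 called genes with the largest change in each direction of each integrin list, and the 3 genes most like each of the 10, of which the closest are named. Genes named outside it were chosen after their values were seen. The results were recomputed with quantile normalization, with log2(value + 50), without a filter or with a median over 50 (27082 probe sets), at an adjusted p under 0.05, with limma's treat, with trend and robust, with the t-test of the methods, in 1 fit of 4 groups, with the replicate block, with the mean of a gene's probe sets and with samples left out. The second brightest probe set was added after seeing the data. Promoter windows are RefSeq's.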

Additional observations from a re-analysis of the deposited data

Results flagged for a closer look

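Single samples stood apart from the rest of their group in 3 of the 40 combinations of gene and group checked with Dixon's test, which chance alone marks in about 1 of 20. Itgb3 was at 6.24 in epidermis replicate 3, against 5.62 to 5.69 in the other epidermis samples. Npnt was at 9.59 in dermis replicate 4, against 9.17 to 9.22 in the others. Vcam1 was at 7.50 in epidermis replicate 4, against 8.86 to 9.07, and that sample also had the lowest median of the mesenchymal list in epidermis, 9.56.

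For 3 genes the difference between mesenchyme and epithelium was unlike at the 2 sites by limma's interaction term. Itga4 had an interaction of 1.42 (adjusted p of 0.00959), with a larger difference in the urogenital sinus. Itga8 had -1.40 (adjusted p of 0.000455) and Itgb3 -1.26 (adjusted p of 0.0014), with a larger difference in skin.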

How the results depend on the processing

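The 5 genes called between UGM and UGE and the 7 called between dermis and epidermis stayed at counts of 5 to 6 and 7 to 8 when each sample was left out in turn. The other counts ran from 2 to 4 for the interaction, 4 to 4 for UGM against dermis and 3 to 6 for UGE against epidermis. With the replicate number as a block the counts were 5 and 7, and the replicate block changed no call of the 10 genes in either comparison. The numbers of UGM and UGE gave correlations of 0.648, 0.006, -0.122, 0.138 and -0.406. Number 1 correlated best with its own number, where the best other reached 0.211. For each of the rest another number correlated better, so that the numbers do not mark pairs throughout. Limma's treat, which tests against 2-fold, left 4 genes called for dermis against epidermis, 0 for the interaction (3 at the usual test) and 1 for UGM against dermis. The interaction count was 1 with the mean of a gene's probe sets, 1 with the second brightest probe set and 5 without UGE replicates 2 and 3. The count for UGE against epidermis was 2 with the mean of the probe sets and 1 with the second brightest.

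Of 1380 values of single genes under the alternatives, 1288 kept direction and call, 51 lost a call, 23 gained one and 18 reversed, 3 of them from a called value. With the second brightest probe set the direction turned for Itga5 (-0.060), Itgb3 (-0.036) and Itgav (-0.011) in UGM minus UGE, for Itgav (-0.15) and Itgb3 (-0.020) in dermis minus epidermis, for Itgav (-0.25) in UGE minus epidermis, and in the interaction for Itga1 (-0.55), Vcam1 (-2.18), Itga8 (0.61) and Itgav (0.13). With the mean of the probe sets it turned for Itgav (-0.10) in UGM minus UGE and in the interaction for Itga1 (-0.091) and Vcam1 (-1.04). With 1 sample left out, Itgav in UGM minus UGE ran from -0.011 (without UGE replicate 3) to 0.083, and it was -0.052 without UGE replicates 2 and 3 and -0.13 with UGE replicates 5 and 6 only. Npnt in dermis minus epidermis ran from -0.22 to 0.013 (without epidermis replicate 4), and Itga5 in UGE minus epidermis from -0.084 to 0.047 (without epidermis replicate 1). The cause of these changes was not tested. Signals near the lower quartile of the arrays, as for Vcam1 in UGE, limit what a fold change can say.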
